A study of Drosophila melanogaster and Drosophila virilis and Drosophila yakuba with 44 samples.

Results

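The dorsoventral patterning genes are 9 genes that set up and read the axis between back and belly in the Drosophila embryo: dl, Tl, cact, twi, sna, sog, zen, rho and tld. They were taken by gene symbol from the 13458 genes counted in D. melanogaster, and all 9 were found in both the 3′-seq and the total RNA-seq counts. As background, the mother loads the egg with the transcripts of Tl (the Toll receptor), cact (the inhibitor Cactus) and dl (the NF-κB factor Dorsal). A cue in the fluid around the egg activates Toll on the ventral side, Cactus is destroyed there, and Dorsal enters the nuclei in a gradient that is highest ventrally. Dorsal switches on twi and sna in the presumptive mesoderm and sog and rho in the neurogenic ectoderm beside it, and it represses zen and tld, which are thereby left to the dorsal side. The same Toll, Cactus and Dorsal proteins act again later, in immunity and in muscle.

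The D. melanogaster 3′-seq data hold 23 libraries with 1 library per condition. There are 6 embryo windows counted from egg laying, of which 3 are early (0–45 min, 45–90 min and 90 min–6 h) and 3 cover the rest of the first day (6–12 h, then 12–18 h, and at last 18–24 h), laid by flies of 2 to 5 days. There are 7 adult samples, namely heads of mated females, ovaries and testes of Canton S flies, whole mated flies of each sex and the carcass of each sex, which is the body without head and gonads, all from flies of 2 to 5 days. There are 10 cell lines, namely mbn2, BG3, S2R+, OSS and those labelled gm2 (GM2 here), cmel1 (L1), Dmd4 (D4), Dmd20 (D20), Dmd32 (D32) and mldmd16_c3 (D16-c3). Total RNA-seq was made from the same RNA of head, ovary and testis. D. yakuba and D. virilis contributed heads of mated females, ovaries and testes in both assays, all from flies of 2 to 5 days. Their embryos, in 3′-seq only, were laid by flies of that age. The D. yakuba embryo libraries are labelled 0–12 h and, for the later one, 12–24 h. The D. virilis windows begin with 0–12 h, followed by 12–24 h, then by 24–36 h and in the end by 36–48 h. No agent or mutation is named for any sample, and the embryos' strain was not given in the sources used here. Windows of several hours hold embryos of many stages, and each library is a mixture of all cells of its sample.

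Between 42379 and 15693295 reads were counted on genes per D. melanogaster 3′-seq library, with a median of 4267610. Levels are RPM, the reads of a gene relative to the TMM-scaled library size, intervals in parentheses are exact 95% intervals for counting error only, and no difference between conditions has a replicate check or a test. The 45–90 min library held only the 42379 reads, so that the floor of 3 reads used for a count of 0 is 35.8 RPM there against 0.479 to 1.20 RPM in the other embryo windows. The 9 genes had 0 to 12 reads each in it, and it was left out of all comparisons. Markers that fitted their labels included osk (a germline determinant) at 1653 RPM in ovary, Mst87F (a sperm protein) at 4820.5 RPM in testis, and ninaE (rhodopsin) at 22644 RPM in head. Others did not separate the samples, with grk of the ovary germline list at 16.2 RPM in ovary, 32.6 RPM in male carcass and 38.0 RPM in S2R+. The 3 follicle cell markers summed to 333 RPM in ovary, 1027 RPM at 6–12 h and 1823 RPM in BG3. TwdlT, of the late embryo list, had no read in any library. Among the cell lines, the 4 neuron markers summed to 136 RPM in BG3, 150 RPM in D4 and 168 RPM in D20. The 4 hemocyte-like markers summed to 2598 RPM in mbn2 and 2231 RPM in L1, of which Pxn alone had 2095 RPM in L1. The male whole-fly library went against its label in part, since the 5 ovary germline markers summed to 559 RPM there, against 35.2 RPM in the male carcass and 30.7 RPM in testis, with osk at 334 RPM and none of the 5 at 0.

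Sequence elements in the 3′ UTRs of 3 of the genes are shown because the 3′ ends of these transcripts are what was sequenced. They are 4 sites from the study's list of conserved sites for RNA-binding proteins, of which a part covering 3 chromosome arms was at hand. Pumilio (PUM) is a repressor of maternal mRNAs and ELAV is a neuronal protein that lengthens 3′ UTRs. The capitals mark the whole site, written 5′ to 3′ on the gene's strand, and each site is listed as a 9-base interval of dm6 that lies in an annotated 3′ UTR of its gene.
cact, PUM, chr2L:16313836-16313844, minus strand: TGTAATT
dl, ELAV, chr2L:17439061-17439069, minus strand: TTTGTTT
dl, ELAV, chr2L:17439567-17439575, minus strand: TTTGTTT
rho, PUM, chr3L:1468000-1468008, plus strand: TGTAAAT
The pair of ELAV sites in dl has the same letters. The cact gene lies at chr2L:16313036-16326207 and dl at chr2L:17436830-17450364, both on the minus strand. On the other arms, rho lies at chr3L:1463811-1468944, Tl at chr3R:26799041-26842403, tld at chr3R:24749731-24753510, and zen at chr3R:6752864-6754194. The sna gene lies at chr2L:15476593-15478260, twi at chr2R:22985374-23048325 and sog at chrX:15603283-15633434. Of the 9 genes, only twi overlaps another annotated gene on its own strand, the noncoding asRNA:CR42742, and the annotated twi locus of 62952 bases also spans 3 genes of the other strand. The cact locus meets fzy, and the rho locus meets Ptp61F, on the other strand, and whether the counting used strand was not given in the sources used here.

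With TMM, the Tl level stayed near the ovary level through the first 12 h of embryogenesis and was far lower afterwards. Maternal and zygotic transcripts cannot be told apart in it. Tl stood at 301 RPM (291–312) in ovary, 298 RPM (285–312) at 0–45 min, 288 RPM (269–308) at 90 min–6 h and 275 RPM (259–291) at 6–12 h. It then stood at 58.7 RPM (49.6–69.0) at 12–18 h and 69.6 RPM (62.3–77.5) at 18–24 h. The intervals of the first 4 libraries meet their neighbors in that order, and both late windows lie below all of them. From 6–12 h to 12–18 h, Tl was 4.68-fold lower (3.94–5.597), and it was 3.06-fold lower with median-of-ratios size factors. The flat early course depends on scaling. From ovary to 0–45 min, Tl was 1.62-fold higher with library totals and 1.34-fold higher with median-of-ratios factors. With the latter it was a further 1.32-fold higher at 90 min–6 h. In whole embryos, fewer cells of a type and less RNA per cell cannot be told apart.

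The transcript of the inhibitor, cact, was present at a high level in each window. It stood at 182 RPM (175–190) in ovary, 303 RPM (290–317) at 0–45 min, 159 RPM (145–174) at 90 min–6 h, 168 RPM (155–181) at 6–12 h, 225 RPM (207–245) at 12–18 h and 215 RPM (202–229) at 18–24 h. The 0–45 min library was highest, and the interval of each later window lies below it. From 0–45 min to 90 min–6 h, cact was 1.90-fold lower (1.72–2.11), and with TMM no later step passed 1.5-fold. With median-of-ratios factors, cact was 2.05-fold higher at 12–18 h than at 6–12 h, and 12–18 h was its highest window.

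The transcript of the transcription factor itself, dl, dropped furthest among the maternal genes and came back late. It stood at 128 RPM (122–135) in ovary, 101 RPM (92.9–109) at 0–45 min, 25.8 RPM (20.3–32.3) at 90 min–6 h and 12.1 RPM (8.97–15.9) at 6–12 h, the lowest of all 23 libraries. It was then at 35.2 RPM (28.2–43.3) at 12–18 h and 61.2 RPM (54.4–68.7) at 18–24 h. From 0–45 min to 90 min–6 h, dl was 3.90-fold lower (3.07–5.03), just inside 4-fold, and a further 2.135-fold lower (1.47–3.12) at 6–12 h. From 6–12 h to 12–18 h it was 2.91-fold higher (2.03–4.20), and 1.74-fold higher (1.37–2.24) again at 18–24 h.

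How these 3 genes compare between ovary and egg depends on the scaling. With TMM, 0–45 min embryos had 1.28-fold less dl (1.16–1.40), 1.01-fold less Tl (0.954–1.07) and 1.66-fold more cact (1.56–1.77) than ovary. Scaling to the library total moves every ratio of this comparison up by 0.71 on the log2 scale, which turns dl to 1.28-fold higher and Tl to 1.62-fold higher. The median of all genes tested was -0.49 on the log2 scale with TMM and 0.25 with library totals. Of the genes past 4-fold, 26.5% were higher with TMM, 48.7% with library totals and 37.2% with median-of-ratios factors.

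Ratios of one gene to another within a library are free of scaling. The pairs compared were chosen after the values were seen. There were 1.42 cact reads (1.33–1.52) for each dl read in ovary, 3.01 (2.75–3.30) at 0–45 min, 6.17 (4.83–7.99) at 90 min–6 h and 13.9 (10.4–18.9) at 6–12 h. The ratio then went down to 6.41 (5.11–8.12) and 3.51 (3.08–4.02) in the last windows. Tl reads for each dl read followed the same course to 22.8 (17.1–30.9) at 6–12 h and were at 1.67 (1.27–2.20) and 1.14 (0.969–1.34) in the last windows, below the 2.35 (2.21–2.50) of ovary. The proportion of inhibitor and receptor transcript to dl transcript was thus highest at 6–12 h.

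**Figure D1:**
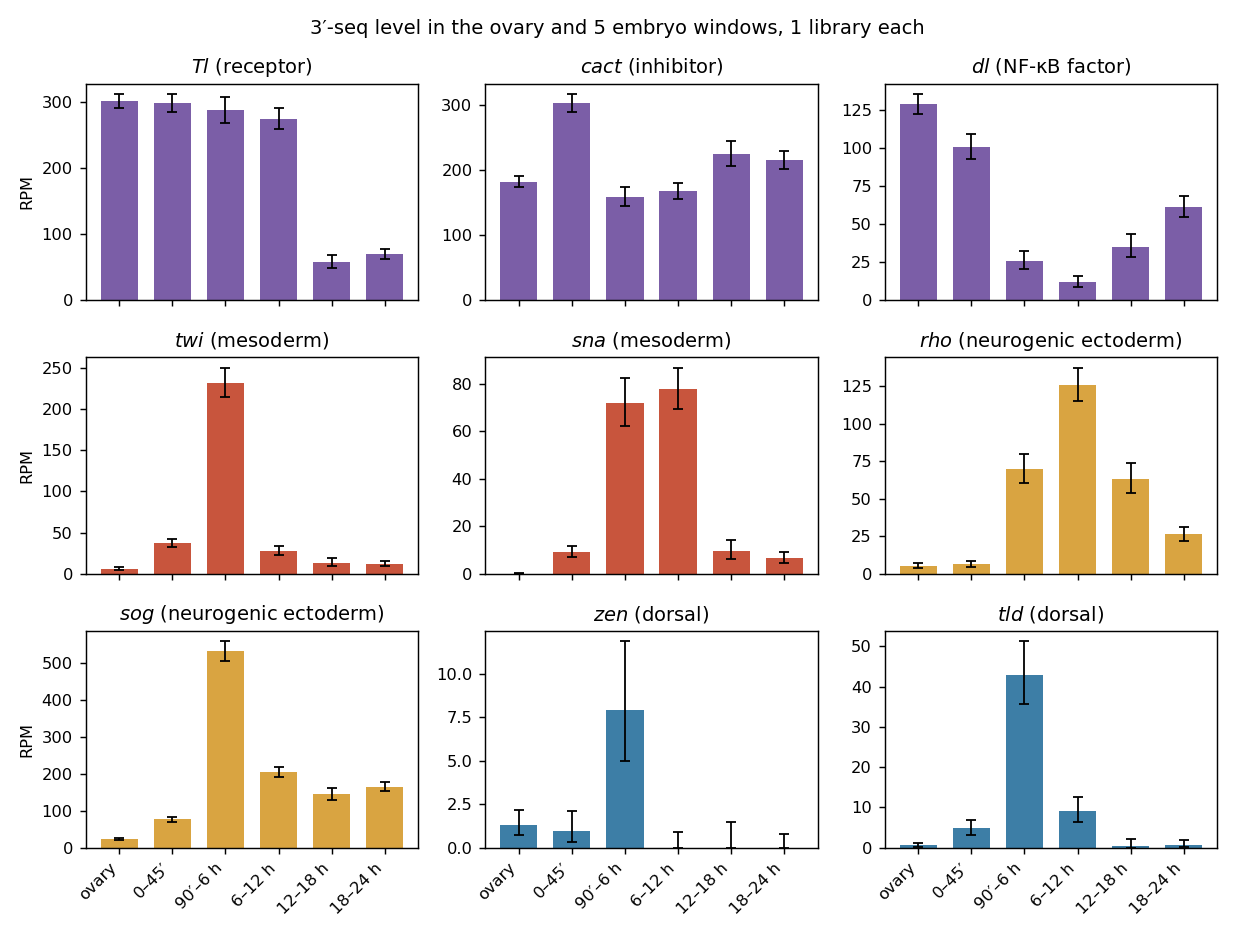
The 9 genes in ovary and 5 embryo windows, in RPM on linear axes that differ between genes, with bars for 1 library each and whiskers for exact 95% counting intervals. The maternal Tl, cact and dl were already high in ovary and at 0–45 min, whereas sog reached 532 RPM and twi 232 RPM at 90 min–6 h and sna and rho were high at 6–12 h as well.

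All 6 zygotic targets were more than 4-fold higher at 90 min–6 h than at 0–45 min, and none of the 3 maternal genes was. A gene was counted as past the fold if it had at least 10 reads over both libraries, at least 5 RPM in one of them and a 4-fold difference with counts under 3 set to 3. A gene under 5 RPM in one library could thus be called only with the other library higher. At 0–45 min this held for zen at 0.958 RPM and tld at 4.79 RPM, which could be called only higher. The zen call rests on 6 against 23 reads. Of 6894 genes tested in this comparison, 9.98% were higher and 18.1% lower by at least 4-fold. The median of the 9 genes was 2.79 on the log2 scale, and the median of all genes tested was -0.41. Of all genes past the fold, 35.5% were higher with TMM, 48.8% with median-of-ratios factors and 43.8% with TMM over the embryo libraries alone. The same 6 genes passed under library totals, median-of-ratios factors, and a pseudocount of 1 RPM.

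The mesoderm gene twi, a helix-loop-helix activator, was high in a single window. It stood at 6.60 RPM in ovary, 37.9 RPM at 0–45 min, 232 RPM at 90 min–6 h, 28.0 RPM at 6–12 h, 14.0 RPM at 12–18 h and 12.2 RPM at 18–24 h. Only the 90 min–6 h window stands out, 6.12-fold (5.27–7.13) above the window before it and 8.27-fold (6.78–10.2) above the one after it. The other mesoderm gene, sna, a zinc-finger repressor, had no read in ovary, and stood at 9.26 RPM at 0–45 min, 71.9 RPM at 90 min–6 h, 77.8 RPM at 6–12 h, 9.59 RPM at 12–18 h and 6.71 RPM at 18–24 h. It was 7.76-fold (5.77–10.6) higher at 90 min–6 h than before, 1.08-fold higher (0.907–1.29) at 6–12 h, where scaling to the library total turns the direction, and 8.11-fold (5.36–12.8) lower at 12–18 h. There were 0.310 sna reads (0.264–0.363) for each twi read at 90 min–6 h and 2.78 (2.24–3.46) at 6–12 h.

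In the neurogenic ectoderm, sog and rho differed in time. The sog gene, whose product is a secreted antagonist of the BMP ligand Dpp, stood at 24.4 RPM in ovary, 77.2 RPM at 0–45 min, 532 RPM at 90 min–6 h, 205 RPM at 6–12 h, 145 RPM at 12–18 h and 165 RPM at 18–24 h. It was highest at 90 min–6 h among all 23 libraries, 6.90-fold (6.22–7.66) above 0–45 min, and stayed above its 0–45 min level in each later window. The rho gene, whose product is an intramembrane protease that releases EGF receptor ligands, stood at 5.55 RPM in ovary, 6.55 RPM at 0–45 min, 69.8 RPM at 90 min–6 h, 126 RPM at 6–12 h, 63.1 RPM at 12–18 h and 26.4 RPM at 18–24 h. It was 10.7-fold (7.59–15.3) higher at 90 min–6 h than before and a further 1.80-fold (1.53–2.1314) higher at 6–12 h. There were 0.131 rho reads (0.113–0.152) for each sog read at 90 min–6 h and 0.614 (0.550–0.686) at 6–12 h.

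**Figure D2:**
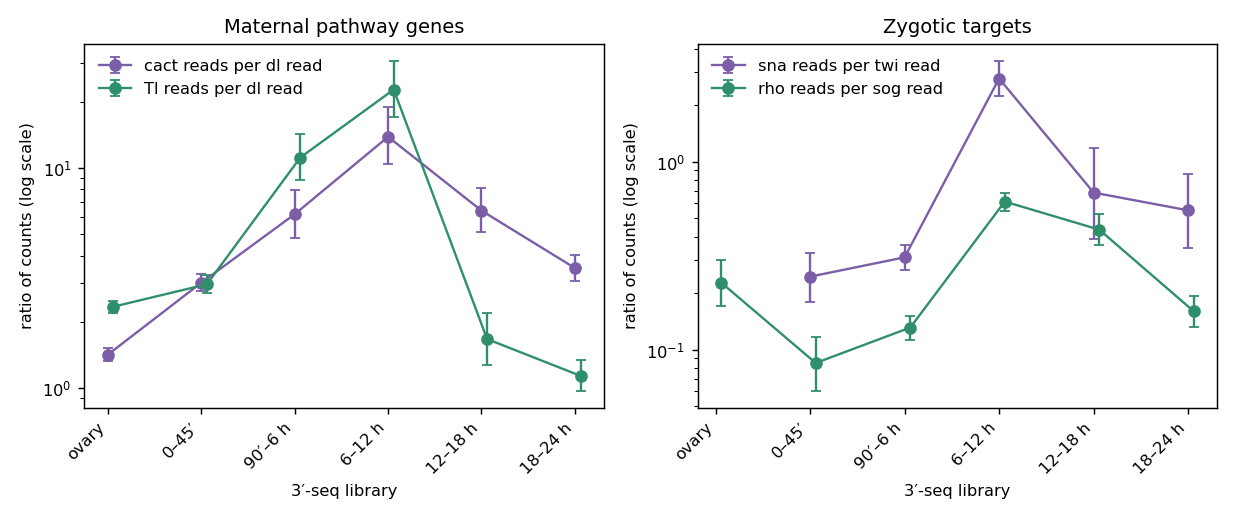
Ratio of the counts of 2 genes in the same library, on a log axis, for ovary and 5 embryo windows, with exact 95% counting intervals. All 4 ratios are highest at 6–12 h, with 13.9 cact reads and 22.8 Tl reads per dl read and 2.78 sna reads per twi read. The ovary has no point for sna, which had no read there.

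The dorsal genes were the weakest and the most restricted in time. The homeobox gene zen had 23 reads at 90 min–6 h, which give 7.91 RPM (5.01–11.9), and 6 reads or 0.958 RPM (0.352–2.09) at 0–45 min. In ovary, zen had 15 reads or 1.32 RPM (0.739–2.18) in 3′-seq and 64 reads or 0.854 RPM (0.657–1.09) in RNA-seq. It had no read in any of the last 3 windows, so that it was 10.9-fold lower at 6–12 h against a floor of 3 reads, with an exact lower limit of 8.18-fold. The tld gene, whose product is a protease that cuts Sog, stood at 0.616 RPM in ovary, 4.79 RPM at 0–45 min, 43.0 RPM at 90 min–6 h and 9.18 RPM at 6–12 h, and had 1 read at 12–18 h and 3 reads at 18–24 h. It was 8.97-fold (5.98–13.8) higher at 90 min–6 h than before and 4.68-fold (3.23–6.92) lower at 6–12 h. The difference from 6–12 h to 12–18 h, 38 reads against 1, gives a ratio of 23.0 (3.88–931).

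Before the main wave, 2 targets were already past 4-fold at 0–45 min relative to ovary, where 3.65% of 7033 genes tested were higher and 10.2% lower. They were twi, at 5.73-fold (4.405–7.54), and sna, with 58 reads against 0, which is 35.1-fold higher against a floor of 3 reads, with an exact lower limit of 27.6-fold. With no read in ovary, sna could be called only higher. The twi ratio rests on an ovary level of 6.60 RPM in 3′-seq, where RNA-seq of ovary had 0.173 RPM. With library totals sog and tld also passed, and with median-of-ratios factors sog passed. Other genes that are transcribed by the embryo were present in the same library. The 5 early zygotic markers eve, ftz, Kr, kni and gt summed to 36.7 RPM at 0–45 min, against 1.497 RPM in ovary and 308 RPM at 90 min–6 h, with eve at 13.7 RPM. Whether older embryos account for the twi and sna reads was not tested.

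Of the 9 genes, 5 were lower by at least 4-fold in a later step. From 90 min–6 h to 6–12 h, twi, zen and tld were more than 4-fold lower and none was higher, where 6.08% of 7420 genes tested were lower and 21.5% higher. With no read at 6–12 h, zen could be called only lower. The median of the 9 genes was -1.09 on the log2 scale and that of all genes tested 0.23. From 6–12 h to 12–18 h, Tl, sna and tld were more than 4-fold lower, where 10.1% of 8365 genes tested were lower and 19.3% higher. With 1 read at 12–18 h, tld could be called only lower there. With median-of-ratios factors, this step had dl higher, sna and tld lower, and Tl not past the fold. It also moved the share of calls that were higher from 65.8% to 82.9%. From 12–18 h to 18–24 h, none of the 7 genes tested passed in either direction, where 10.4% of 8473 genes tested were higher and 7.28% lower.

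Over the 5 usable windows, twi, sog, zen and tld were highest at 90 min–6 h, sna and rho at 6–12 h, and Tl, cact and dl at 0–45 min. Among all 9257 genes tested over these windows, 15.3% were highest at 90 min–6 h and 30.2% at 0–45 min. The order of the maternal genes depends on scaling. With median-of-ratios factors Tl was highest at 90 min–6 h, cact at 12–18 h and dl at 18–24 h, whereas with library totals these 3 kept 0–45 min and sna moved to 90 min–6 h.

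Other genes of the pathway were followed from 6 lists, beside which 9.98% of all genes tested were higher and 18.1% lower in this step. Among 11 genes of the eggshell and perivitelline cue, 8 were tested from 0–45 min to 90 min–6 h, and 2 were higher and 2 lower. The lower ones include spz, the Toll ligand, with 147 RPM at 0–45 min and 11.7 RPM at 90 min–6 h, 12.6-fold lower (8.93–18.3). The higher ones were Egfr, which is also on the neurogenic list, from 1.76 to 46.8 RPM, and wbl, from no read to 6.19 RPM. The sulfotransferase gene pip had 1 read at 90 min–6 h and 196 RPM at 6–12 h. Of 6 genes that act inside the cell below Toll, 5 were tested, with 1 higher and 2 lower. The adaptor gene Myd88 went from 52.7 to 7.91 RPM, 6.67-fold lower (4.37–10.7), the kinase gene pll from 71.6 to 43.0 RPM, and Traf4 from 25.9 to 266 RPM. Dif, which encodes a relative of Dorsal used in immunity, had no read in either library and stood at 76.7 RPM at 12–18 h.

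Most other zygotic genes of the axis that were tested were also higher by at least 4-fold in this step. Of 10 mesoderm genes, 9 were tested in the same step and 6 were higher, with a median of 2.76 on the log2 scale. Ilp4 went from 27.2 to 268 RPM, NetA from 18.2 to 131 RPM and stumps from 10.7 to 57.1 RPM, whereas Mef2, a muscle regulator, stood at 67.7 and 64.6 RPM and was 5.03-fold higher (4.32–5.90) only at 6–12 h. Of 12 neurogenic ectoderm and midline genes, 11 were tested and 8 were higher, with a median of 2.69. The proneural gene l(1)sc went from 23.2 to 263 RPM, SoxN from 35.8 to 171 RPM and the FGF gene pyr from 8.15 to 41.9 RPM, whereas the EGF receptor ligand gene vn stood at 46.8 and 39.2 RPM. Of 13 dorsal ectoderm and amnioserosa genes, 12 were tested and 10 were higher, with a median of 3.31. They included Ance, from 12.0 to 173 RPM, Doc1, from 7.83 to 136 RPM, peb, from 12.0 to 124 RPM, and tup, from 7.99 to 86.0 RPM. No gene of these last 3 lists was lower by 4-fold or more, though T48 went from 16.5 to 4.47 RPM, 3.68-fold lower (2.06–7.15), and fog, which acts in mesoderm invagination, from 85.1 to 46.1 RPM. Of the 4 early zygotic activators, sc, sisA and grh were higher, and zld, which encodes the pioneer factor Zelda, went from 365 to 754 RPM, a 2.07-fold difference (1.95–2.19). The ind and tsg genes, of the ectoderm lists, and gd, of the eggshell list, had at most 1.23 RPM in any library. The ind gene lies wholly inside Sytbeta on the same strand, so that its count of 0 in each library does not tell whether it was transcribed.

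Outside the embryo, the maternal genes were read in every adult sample and every cell line, while zen and tld were close to absent. Tl, cact, dl and sog stood at 5 RPM or more in all 7 adult libraries. Taken singly, these libraries had from 49.8% of all genes (whole females) to 71.0% (whole males) at that level. The share of all genes that reached it in all 7 is not given here. Tl ranged there from 11.7 RPM in testis over a median of 112 RPM to 301 RPM in ovary, dl from 22.05 RPM in testis over 57.1 RPM to 128 RPM in ovary, and cact from 67.8 RPM in testis over 156 RPM to 280 RPM in female head. Testis was the lowest adult library for all 3. The sog gene ranged from 10.3 RPM in whole females over 81.9 RPM to 362 RPM in female head. The rho gene ranged from no read in whole females over 5.597 RPM to 97.8 RPM in head. Whole females, with 1519235 reads, lay below every female part for sog, rho and twi. In ovary, carcass and head, sog stood at 24.4, 81.9 and 362 RPM, and rho at 5.55, 5.597 and 97.8 RPM. The twi level was 1.97 RPM in whole females against 6.60, 6.27 and 7.37 RPM in these parts. Tl, cact and dl lay between the parts, at 144, 131 and 73.9 RPM in whole females. Why the library was low for sog, rho and twi was not tested. The sna gene had no read in 5 of the 7 adult libraries. It had 1 read in whole females and 48 reads, 5.76 RPM (4.25–7.63), in whole males, the library with ovary germline markers, where twi stood at 23.8 RPM and zen had 9 reads. The part of those germline transcripts in these values was not tested. Of the 5 early zygotic markers, eve stood there at 7.56 RPM against 0.102 RPM in the male carcass and Kr at 4.32 against 0.306 RPM, ftz and gt at 1.80 RPM each against no read, and kni at 27.6 against 33.8 RPM.

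**Figure D3:**
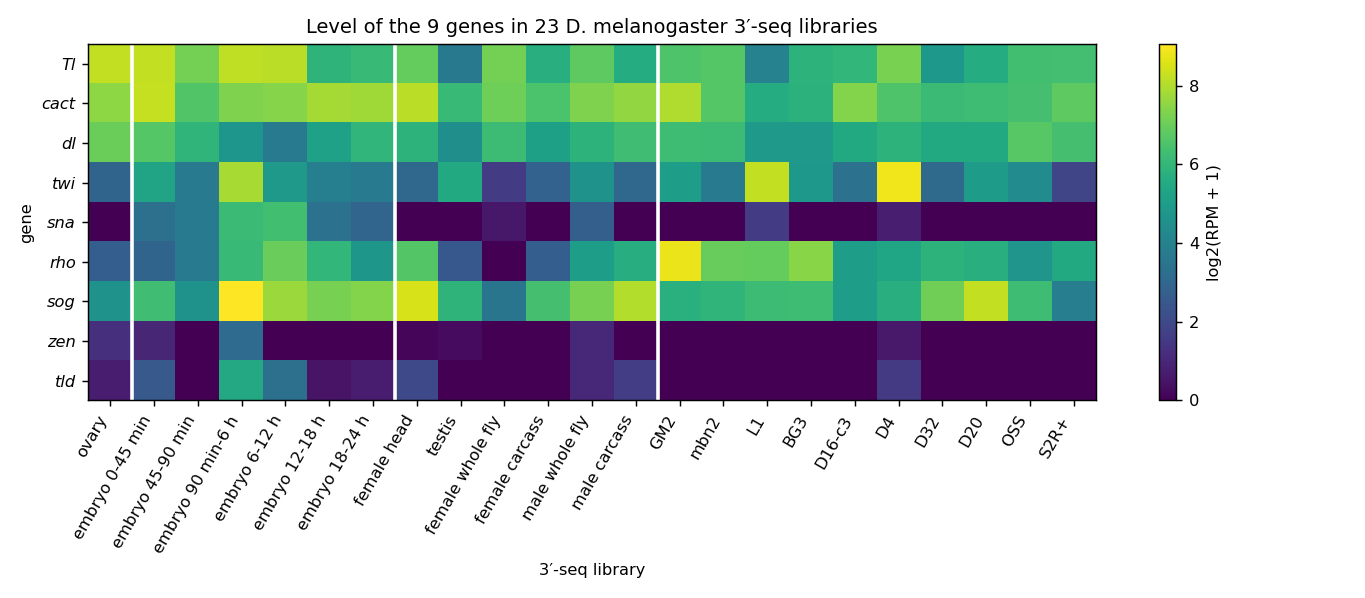
Level of the 9 genes as log2(RPM + 1) in the 23 D. melanogaster 3′-seq libraries, with white lines between ovary, embryo windows, other adult samples and cell lines. The rows of Tl, cact and dl are filled throughout, whereas sna has no read in 13 of the 23 libraries, zen in 16 and tld in 13. The 45–90 min column rests on 42379 reads.

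Head and testis were set against ovary in both assays. From ovary to female head, sog was 14.8-fold higher (13.1–16.8) in 3′-seq and 18.1-fold higher (16.5–19.9) in RNA-seq, and rho was 17.6-fold (13.7–23.1) and 20.9-fold (18.2–24.3) higher. Of the members tested, they were the only ones past 4-fold in either assay. In 3′-seq, 28.3% of 8665 genes tested were higher and 20.5% lower in head, and in RNA-seq 28.2% of 8635 were higher and 19.7% lower. Median-of-ratios factors moved the share of 3′-seq calls that were higher from 58.1% to 80.1%, sog to 30.9-fold and rho to 36.7-fold. Tl was 2.53-fold lower (2.36–2.71) in head than in ovary in 3′-seq and 2.04-fold lower (1.99–2.09) in RNA-seq, and 1.21-fold lower in 3′-seq with median-of-ratios factors. The assays disagreed on cact, which was 1.54-fold higher (1.45–1.63) in 3′-seq, or 3.20-fold with median-of-ratios factors, and 1.12-fold lower (1.10–1.15) in RNA-seq, where median-of-ratios factors, which move that comparison up by 0.18 on the log2 scale, turn the direction.

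From ovary to testis, Tl was 25.8-fold lower (19.8–34.4) in 3′-seq and 17.5-fold lower (16.04–19.1) in RNA-seq. The dl gene was 5.83-fold lower (4.77–7.18) and 4.03-fold lower (3.66–4.45), and cact, not past 4-fold, 2.69-fold (2.39–3.03) and 3.67-fold (3.48–3.89) lower. In the other direction, twi was 6.65-fold higher (5.08–8.77) in testis in 3′-seq, at 43.9 against 6.60 RPM, and 147-fold higher (85.3–279) in RNA-seq, at 25.5 against 0.173 RPM. The ovary level behind these ratios rests on 75 reads in 3′-seq and 13 reads in RNA-seq. Its intervals, 5.19–8.28 RPM in 3′-seq and 0.0923–0.296 RPM in RNA-seq, do not meet, though the assays were scaled separately. The reason for this difference was not tested. The sog gene was 2.37-fold higher (2.00–2.81) in 3′-seq and 4.19-fold higher (3.70–4.75) in RNA-seq. In 3′-seq 31.9% of 9400 genes tested were higher and 19.5% lower in testis, and in RNA-seq 31.9% of 9238 were higher and 19.1% lower. With median-of-ratios factors in 3′-seq, sog passed 4-fold at 5.41-fold higher and dl did not at 2.56-fold lower, Tl was 11.3-fold and cact 1.18-fold lower, and the share of calls that were higher was 85.9% against 62.0% with TMM and 51.1% with library totals.

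In the cell lines, 5 members stood at 5 RPM or more in all 10 lines, as did 32.8% of all genes. They were dl, Tl, cact, sog and rho. At the other end, sna, zen and tld stayed under 5 RPM in each line, as did 33.8% of all genes, and they had no read in 8, 9 and 9 of the 10 lines. The maternal genes varied least for dl, which ranged from 28.6 RPM in BG3, a larval nervous system line, over a median of 50.9 RPM to 103 RPM in OSS, an ovarian somatic line. Tl ranged from 15.0 RPM in L1 over 70.2 RPM to 151 RPM in D4, and cact from 47.3 RPM in L1 over 89.1 RPM to 254 RPM in GM2. The D lines and L1 were derived from imaginal discs, and GM2 from embryos.

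The zygotic targets gave single lines that stood apart. The twi gene stood at 468 RPM (452–484) in D4 and 302 RPM (291–314) in L1, both above the 232 RPM (215–250) of the 90 min–6 h embryo, and at 2.67 to 32.4 RPM in the other 8 lines. Its partner sna had only 5 reads in D4 and 18 reads in L1, or 0.690 RPM (0.224–1.61) and 1.99 RPM (1.18–3.14). The twi locus overlaps asRNA:CR42742 on its own strand and 3 genes of the other strand, and no RNA-seq was made of the lines. The part of these genes in the twi values was not tested. The FGF receptor gene htl, a twi target in the embryo that was singled out after its values were seen, was also highest in D4 at 62.2 RPM and L1 at 40.3 RPM, followed by D32 at 22.2 RPM. Other genes of the mesoderm list did not share this order, with stumps at 2.21 RPM in L1 and 37.5 RPM in D4 against 204 RPM in D32 and 194 RPM in D16-c3, and fog at 51.0 RPM in D4 against 371 RPM in D32. The rho gene stood at 448 RPM (429–467) in GM2, above all other libraries, then at 175 RPM (145–210) in BG3, 124 RPM (111–138) in mbn2, a blood cell line, and 121 RPM (114–128) in L1, and from 25.5 to 56.4 RPM in the other 6 lines. The sog gene stood at 299 RPM (281–318) in D20 and 135 RPM (120–151) in D32, and from 13.8 RPM in S2R+ to 75.4 RPM in BG3 in the other 8 lines.

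**Figure D4:**
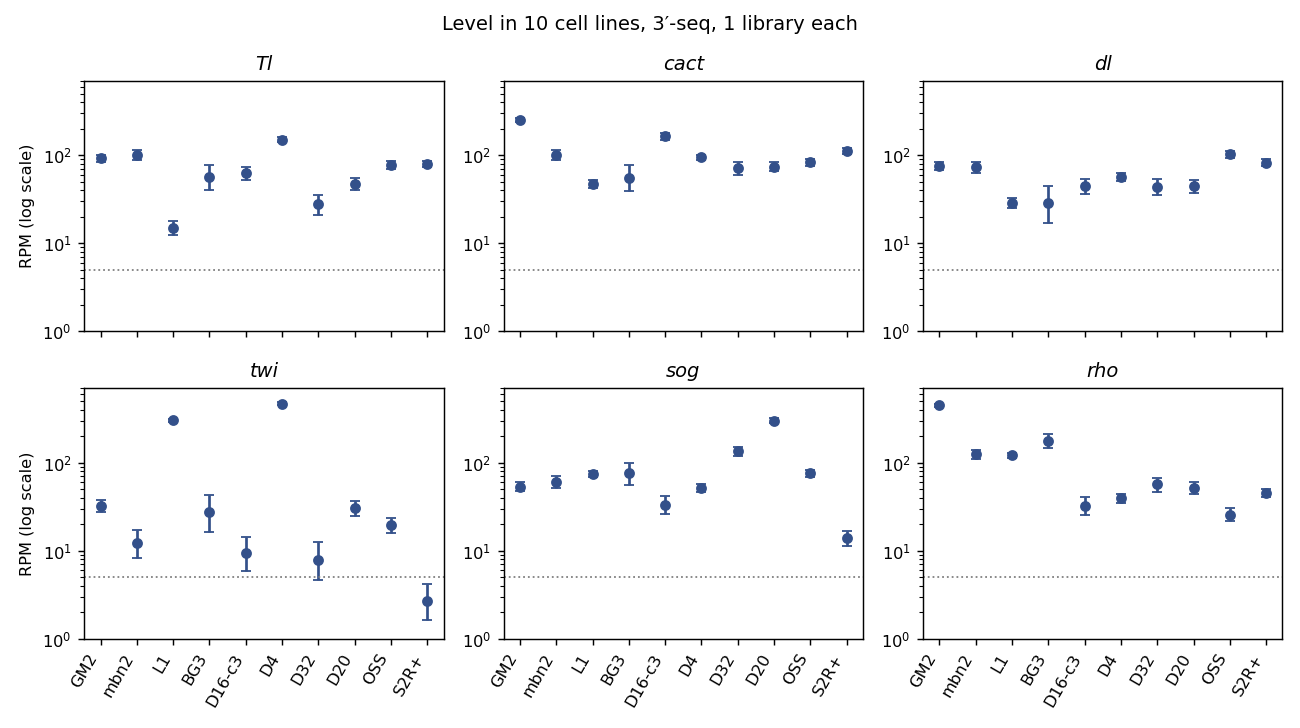
Level of 6 genes in the 10 cell lines in RPM on a log axis, 1 library each, with exact 95% counting intervals and a dotted line at 5 RPM. D4 at 468 RPM and L1 at 302 RPM stand apart for twi, GM2 at 448 RPM for rho, and D20 at 299 RPM for sog, whereas dl spans 28.6 to 103 RPM. The genes sna, zen and tld are not drawn, since they stayed under 5 RPM in each line.

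Only part of the genes could be followed in the other species, by symbol. In D. yakuba dl, Tl, cact, twi and sog were found, and in D. virilis Tl, twi, sog and rho, and the remaining members were not analysed there. From ovary to head, sog was 19.9-fold higher (16.9–23.6) in D. yakuba and 11.8-fold higher (9.48–14.9) in D. virilis in 3′-seq, at 270 and 74.2 RPM in head. In D. virilis, rho was 14.4-fold higher (9.70–22.2) in head. Tl was 16.3-fold lower (13.3–20.2) in testis than in ovary in D. yakuba and 23.8-fold lower (17.8–32.6) in D. virilis. In RNA-seq these differences were 19.96-fold (17.9–22.3) and 13.8-fold (12.2–15.6) for sog, 10.2-fold (8.15–12.9) for rho, and 14.9-fold (14.3–15.5) and 13.5-fold (12.6–14.5) for Tl, all in the direction seen in D. melanogaster. In RNA-seq, twi had 90 reads in D. yakuba testis against 1 in ovary, and 57 against 0 in D. virilis, which give only 1.94 and 1.61 RPM in testis, under the 5 RPM needed for a call. In 3′-seq, it had 14 reads in testis against 0 in ovary in D. yakuba and none in either tissue in D. virilis.

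**Figure D5:**
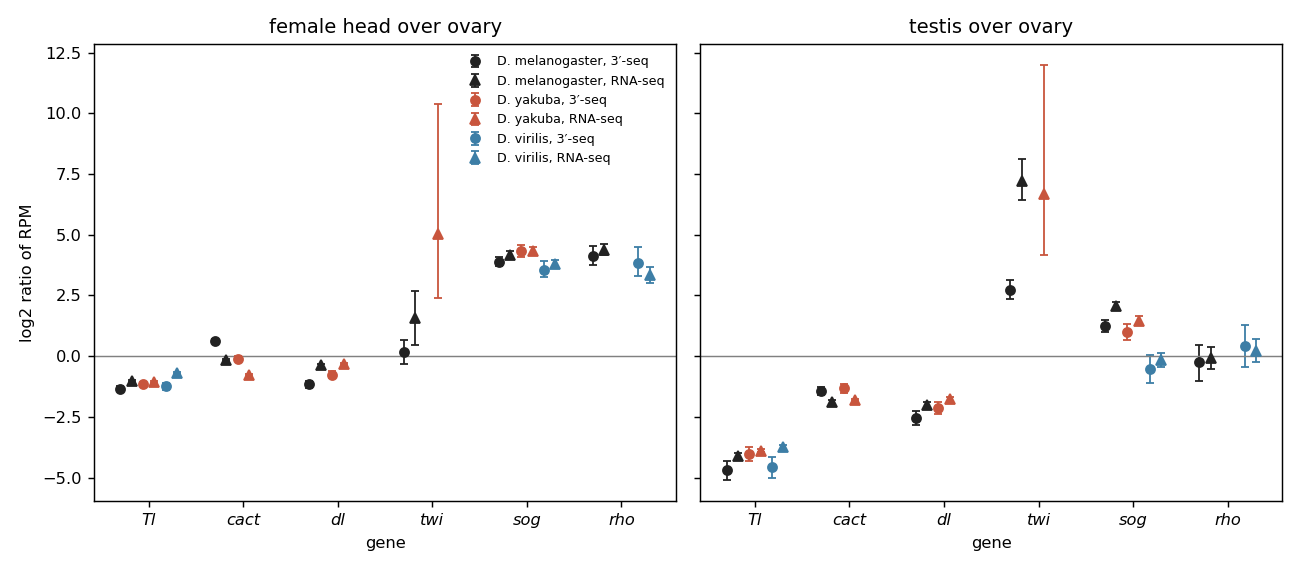
Log2 ratio of RPM in female head (left) and testis (right) over ovary for 6 genes in 3 species, with circles for 3′-seq, triangles for RNA-seq and exact 95% counting intervals, where both libraries had at least 1 read and the gene was found by symbol. Tl lies below 0 and sog in head lies above 0 in all 3 species and both assays, and twi in testis over ovary spreads from 6.65-fold in 3′-seq to 147-fold in RNA-seq in D. melanogaster.

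Most stage markers of the D. yakuba embryo libraries went against the labels. The library labelled 0–12 h had 2398 RPM of Mhc, 4290 RPM of Mlc1 and 2059.5 RPM of wupA, which are muscle genes, and only 3.78 RPM of the maternal dhd and 0.344 RPM of hb. The library labelled 12–24 h had 159 RPM of Mhc, 358 RPM of Mlc1, 209 RPM of wupA, 256 RPM of dhd and 50.2 RPM of hb. Over the genes that share a symbol, Spearman's coefficient with the D. melanogaster windows was highest for 18–24 h in the library labelled 0–12 h (0.85, 373 genes) and for 6–12 h in the library labelled 12–24 h (0.86, 349 genes). These correlations across genes are descriptions only. Except for Mhc, these genes were chosen after their values were seen. Act57B, a muscle actin gene of the original list, did not separate the libraries, at 2.75 RPM in the one labelled 0–12 h and 2.12 RPM in the one labelled 12–24 h.

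In the library labelled 12–24 h, twi stood at 55.6 RPM against 5.16 RPM in the library labelled 0–12 h, 10.8-fold higher (6.498–19.3). Tl stood at 276 against 97.0 RPM, sog at 184 against 86.7 RPM and cact at 193 against 104 RPM, whereas dl stood at 19.5 against 68.5 RPM, 3.50-fold lower (2.93–4.18). In D. virilis, the first window was set apart from the later ones by part of its markers, with Mhc at 10.8 RPM and then at 820, 3231 and 2360 RPM, and dhd, chosen after its values were seen, at 3632 RPM and then at 361, 455 and 549 RPM. The osk, nos and vas genes were also highest at 0–12 h among these windows, at 436, 165 and 55.7 RPM. Other listed markers separated it less or not. Over the windows, bcd stood at 97.8, 60.9, 70.3 and 68.0 RPM, kni at 59.6, 71.5, 12.0 and 13.8 RPM, and elav at 29.6, 66.3, 18.0 and 19.1 RPM. In D. virilis, Tl went from 322 RPM at 0–12 h over 219 and 193 RPM to 141 RPM at 36–48 h. The sog gene stood at 57.8, 25.2, 55.3 and 42.8 RPM in the 4 windows, and rho at 43.0, 72.2, 32.8 and 18.3 RPM. D. virilis twi had 24 reads at 0–12 h and 3, 4 and 0 reads in the later windows.

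Finally, the genes most like each member were sought over the 22 D. melanogaster 3′-seq libraries without 45–90 min, by Pearson's r of log2(RPM + 1) among 11855 genes. The libraries share their scaling and differ in depth, and each r is a description. The closest fits were to sna, with r of 0.96 for Ocho, 0.96 for E(spl)m4-BFM and 0.95 for E(spl)m8-HLH, of which the last pair are targets of Notch. The zen gene was followed by sro (0.93), its neighbor and paralog zen2 (0.91) and CG6885 (0.89), and tld by the segmentation genes slp1 (0.89) and btd (0.86) with CG13454 (0.87). The rho gene was followed by her (0.87), Cdep (0.83) and CG42238 (0.83). By Pearson's r, the maternal genes were followed less closely, with CG11284 (0.85), Jafrac1 (0.82) and tws (0.80) for dl, S (0.84), CG14478 (0.83) and PR-Set7 (0.82) for Tl, and wun2 (0.75), syd (0.74) and dgo (0.72) for cact. The twi gene had the lowest values, with dnt (0.67), CG9593 (0.65) and CG43163 (0.64), and sog was followed by Toll-6 (0.75), pros (0.75) and grh (0.74). Among the members themselves, the highest r was 0.78 between sna and tld, and twi and sna had 0.38. Spearman's coefficient did not set sna apart from the maternal genes. It was 0.80, 0.83 and 0.72 for the genes named for sna. For those of dl it was 0.81, 0.78 and 0.77, and for those of Tl 0.83, 0.78 and 0.82. Of all 23 libraries, sna had no read in 13 and zen in 16, so that their r rests on few libraries with reads.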

How the data were processed

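Total RNA was extracted with TRIzol, except that RNA of most cell lines came from modENCODE. For 3′-seq, oligo-dT primed 3′ ends were sequenced, and stranded total RNA-seq was made from the same RNA of head, ovary and testis. The authors deposited raw read counts per gene, made with featureCounts on an annotation whose 3′ ends they had extended, on the dm6, dyak3 and dvir3 builds. The submitters' processing notes name HISAT2 and Trimmomatic 0.36. The options of the 3′-seq counting were not given in the sources used here.

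Counts were scaled with TMM in edgeR 4.0.16 (R 4.3.3), separately for each table, and given as RPM. Intervals were computed with scipy 1.17.1, as exact Poisson limits for a level and exact binomial (Clopper-Pearson) limits for a ratio, at 95%. They cover counting error only, since 1 library per condition allows no test. A gene was tested for a 4-fold difference with at least 10 reads over both libraries and 5 RPM in one of them, and counts under 3 were set to 3. The alternatives were library totals, size factors of DESeq2 1.42.0, TMM over the embryo libraries alone, a pseudocount of 1 RPM, 2-fold, no filter and RNA-seq. Scripts were tested on simulated data.

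Named were all 9 members, from each of 6 pathway lists with 55 genes at most the 4 with the highest RPM in an embryo window, and for each member the 3 genes with the highest Pearson's r. From the pathway lists, htl, T48, fog, ind, tsg and gd were named as well, though they are not among those 4. The members and lists were chosen with earlier results of these data known. Positions came from Ensembl 115 (BDGP6, the dm6 assembly). Orthologs were matched by symbol only.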

Additional observations from a re-analysis of the deposited data

Results flagged for a closer look

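The genes Tl, twi and sog went in opposite directions between the first and second embryo windows of D. yakuba and D. virilis as labelled, and the difference was not tested. The ratio of the second window to the first was 2.84 for Tl in D. yakuba and 0.679 in D. virilis. It was 10.8 for twi in D. yakuba and 0.250 in D. virilis, the latter from 24 and 3 reads. It was 2.12 for sog in D. yakuba and 0.436 in D. virilis. Most stage markers shown for the D. yakuba libraries went against their labels, with Mhc at 2398 RPM in the library labelled 0–12 h and 159 RPM in the library labelled 12–24 h. Those other than Mhc were chosen after their values were seen, and the listed Act57B did not separate the libraries, at 2.75 and 2.12 RPM. Taken in the opposite order, the D. yakuba ratios were 0.352 for Tl, 0.0929 for twi and 0.471 for sog. Inverting a ratio turns its direction by construction, and whether the labels were exchanged was not tested.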

How the results depend on the processing

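No direction of a member past 4-fold was reversed by any alternative tried. With a 2-fold threshold, the members past it numbered 5 instead of 3 from 90 min–6 h to 6–12 h, 5 instead of 3 from 6–12 h to 12–18 h, 1 instead of 0 from 12–18 h to 18–24 h, 4 instead of 2 from ovary to head and 5 instead of 3 from ovary to testis. They numbered 3 instead of 2 from ovary to 0–45 min. From 0–45 min to 90 min–6 h, the same 6 were higher and 1, dl, was lower. All genes past 2-fold then numbered 2345 of 7033 tested, 3544 of 6894, 3656 of 7420, 4714 of 8365 and 3236 of 8473 over the 5 steps from ovary to 18–24 h, and 6469 of 8665 from ovary to head. With no filter, 1647 genes passed 4-fold from ovary to 0–45 min and 4 members passed from ovary to head. No count of all genes is given here for ovary to head with no filter or for ovary to testis at 2-fold. With library totals, 4 members instead of 2 passed from ovary to 0–45 min, where 406 of 6947 genes tested were higher and 427 lower. Of 76 ratios, 37 moved beyond their counting interval with median-of-ratios factors, 18 with library totals and 1 with the pseudocount, and 10 of 16 differed so in RNA-seq. Ranked by Spearman's coefficient, 6 of the 27 genes most like the members remained among the 3 nearest, and 23 of 27 remained without the male whole-fly library, an alternative chosen after seeing the data. No paired analysis was possible because each condition had 1 library and no test was run. Depth limits sna, zen and tld most, and 3 reads of the 45–90 min library correspond to 35.8 RPM.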
